A study of Mus musculus with 5 samples.

Results

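The genes described here encode the subunits of the proteasome, its activators, assembly chaperones and inhibitor, measured in single kidney cells in a mouse model of obstructive injury, UUO (unilateral ureteric obstruction), where an obstructed ureter can be released again. They were chosen by name alone, as every gene symbol that starts with Psma, Psmb, Psmc, Psmd, Psme, Psmf or Psmg and goes on with a digit, which held for 50 of the 28692 gene identifiers in the droplet tables. One of the 50, Psmc3ip, fits the spelling but encodes a meiotic recombination partner and no proteasome part, so 49 are proteasome genes. All 50 are protein-coding in the GENCODE M21 annotation of GRCm38. The kidneys came from C57/BL6 mice aged 8 weeks, and cells were digested on ice and sorted as live by DAPI exclusion before 10x 3′ v2 droplet libraries were made. There were 4 droplet libraries, each pooled from 3 mice: sham surgery (day 0), UUO on day 2, UUO on day 7, and reversed UUO, taken 7 days after release on experimental day 14. A further sample of 768 wells was prepared with the full-length Smart-seq2 method from all time points together. No genetic change, transgene or drug is named in the labels of any group. Since each time point was 1 library, no test between time points could be run and every interval below is a 95% interval for counting error, without the spread between animals.

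The 20S core of the proteasome is a barrel of alpha and beta rings that degrades proteins tagged with ubiquitin, and the 19S cap recognises, unfolds and feeds those proteins into it. Psmb5, Psmb6 and Psmb7 encode the catalytic beta subunits β5, β1 and β2 of the standard particle. In cells exposed to interferon, and constantly in many blood-derived cells, Psmb8 (β5i), Psmb9 (β1i) and Psmb10 (β2i) are built in instead, which gives the immunoproteasome, known for cutting peptides suited to MHC class I. Psme1 and Psme2 encode PA28 alpha and beta, an interferon-inducible activator ring, whereas Psme3 and Psme4 encode the nuclear activators PA28 gamma and PA200. In kidney, tubule cells carry the standard particle at rest, and infiltrating leukocytes bring the immunoproteasome with them.

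Psmb9 (chr17:34181987-34187764, minus strand) and Psmb8 (chr17:34197721-34201454, plus strand) lie in the MHC region on either side of Tap1 (chr17:34187553-34197225), a peptide transporter gene of the same pathway, and Tap2 follows at chr17:34203527-34216321. Psmb9 and Tap1 start from opposite strands with overlapping 5′ ends, so reads from that overlap cannot be assigned here because the strand setting of the counting is not given in the sources used here. Psmb10 lies apart at chr8:105935735-105938444. The standard partners are on other chromosomes, with Psmb5 at chr14:54614119-54618022, Psmb6 at chr11:70525367-70527858 and Psmb7 at chr2:38588036-38644087. The 300 bases around the RefSeq start (GRCm38.p6, 250 before and 50 after) are shown for the catalytic pairs. These are the genes whose levels changed relative to each other in the tubule. RefSeq listed a start for 42 of the 50 genes and none for Psmb7. The first 3 sequences belong to the immunoproteasome genes and the last 2 to their standard partners, and capitals mark matches to the motifs described next.
Psmb8, chr17:34197945-34198244, plus strand: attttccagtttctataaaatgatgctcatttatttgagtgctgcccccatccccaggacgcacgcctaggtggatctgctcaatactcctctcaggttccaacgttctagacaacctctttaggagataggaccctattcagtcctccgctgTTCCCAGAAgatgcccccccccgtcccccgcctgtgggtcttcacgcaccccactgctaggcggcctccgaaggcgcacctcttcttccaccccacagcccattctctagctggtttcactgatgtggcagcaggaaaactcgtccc
Psmb9, chr17:34187281-34187580, minus strand: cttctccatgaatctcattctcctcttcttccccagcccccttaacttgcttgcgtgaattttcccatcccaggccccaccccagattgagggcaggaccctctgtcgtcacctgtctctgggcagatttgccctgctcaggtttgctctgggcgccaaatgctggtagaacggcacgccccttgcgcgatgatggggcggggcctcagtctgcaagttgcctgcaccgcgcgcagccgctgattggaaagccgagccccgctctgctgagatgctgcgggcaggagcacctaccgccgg
Psmb10, chr8:105938343-105938642, minus strand: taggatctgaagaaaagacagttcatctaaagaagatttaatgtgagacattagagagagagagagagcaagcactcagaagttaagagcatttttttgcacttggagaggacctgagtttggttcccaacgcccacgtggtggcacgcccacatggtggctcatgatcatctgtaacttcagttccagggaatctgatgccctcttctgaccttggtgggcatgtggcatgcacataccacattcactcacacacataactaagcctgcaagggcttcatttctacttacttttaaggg
Psmb5, chr14:54617946-54618245, minus strand: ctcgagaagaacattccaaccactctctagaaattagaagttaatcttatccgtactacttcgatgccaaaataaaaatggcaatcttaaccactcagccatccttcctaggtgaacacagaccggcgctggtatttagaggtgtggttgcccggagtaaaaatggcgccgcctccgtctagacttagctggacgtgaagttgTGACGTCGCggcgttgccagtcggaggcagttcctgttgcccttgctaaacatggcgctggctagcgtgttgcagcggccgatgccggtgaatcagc
Psmb6, chr11:70525107-70525406, plus strand: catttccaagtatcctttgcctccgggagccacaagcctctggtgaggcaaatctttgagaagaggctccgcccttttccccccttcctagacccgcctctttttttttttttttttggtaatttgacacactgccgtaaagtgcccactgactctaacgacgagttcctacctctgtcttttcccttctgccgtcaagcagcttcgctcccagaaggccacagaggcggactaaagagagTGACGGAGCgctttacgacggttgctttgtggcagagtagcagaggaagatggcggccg

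The motifs searched, on both strands, were the interferon-stimulated response element core GAAANNGAA, the gamma-activated site TTCNNNGAA, the kappaB site GGGANTTCC, the CCAAT box and the antioxidant response element core TGACNNNGC. Psmb8 held TTCCCAGAA, a match to the gamma-activated site, at positions -97 to -89 with the start base counted as 0. This motif occurred in 8.33% of the 32544 RefSeq promoters of this length and in 3 of the 42 listed members, the others being Psmd2 and Psmg1. Psmb9 and Psmb10 held none of the 4 longer motifs in the window. Psmb5 (-47 to -39) and Psmb6 (-9 to -1) each held the antioxidant element core, which occurred in 12.4% of all promoters and in 6 of the 42. The interferon element core occurred in 8.53% of all promoters and in 6 of the 42, among them Psme1, and the kappaB site in 1.69% and in 0 of the 42. The CCAAT box, left in lower case above because 37.4% of all promoters hold it, occurred in 15 of the 42, Psmb9 among them. These matches describe the letters only, and no factor binding was measured.

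The droplet tables held 2739 to 5938 cells and 18649637 to 30462683 unique molecular identifiers (UMIs) per library. The sham library was shallowest, at a median of 2480.5 UMIs per cell against 4709 to 5668 in the others, and its median mitochondrial share was 40.6% against 3.00 to 16.2%. Cells were assigned by the number of distinct marker genes detected, which gave 3092, 653, 264 and 1259 proximal tubule cells in sham, day 2, day 7 and reversed libraries, 320, 607, 593 and 488 other tubule cells, 57, 530, 2389 and 586 mononuclear phagocytes, and 212, 163, 489 and 362 endothelial cells. Of the 12907 assigned cells, 98.7% lay in a cluster of the same class. Between 16 and 39 cell barcodes were shared by each pair of libraries. In the text below, 4 values in a row are always in the order sham, day 2, day 7 and reversed. Of the 50 members, Psma8 (52 UMIs over the 4 gates, a testis form of an alpha subunit) and Psmb11 (1 UMI, the thymus form of β5) never passed the filter on low values, and Psmc3ip passed it in 4 of 20 comparisons. The other 47 passed it in 19 or 20.

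In proximal tubule cells the immunoproteasome share was lowest in sham and highest on day 7. This share is the UMIs of Psmb8, Psmb9 and Psmb10 as a percentage of the UMIs of all 6 catalytic genes, so it does not depend on how a library is scaled. The sham library gave 3.93% (178 of 4530 UMIs, exact interval 3.38 to 4.54%) and the day 2 library 11.7% (311 of 2652, interval 10.5 to 13.0%). The day 7 library gave 35.5% (683 of 1922, interval 33.4 to 37.7%) and the reversed library 21.7% (1046 of 4831, interval 20.5 to 22.8%). The 4 intervals did not overlap, and the reversed value lay between those of day 2 and day 7. With cells classed by cluster instead of by markers the order was kept, but the reversed share was 13.7% (interval 12.5 to 14.9%).

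Each of the 3 catalytic pairs showed the same order up to day 7 but they parted after reversal. Psmb8 made up 4.28, 12.6, 43.1 and 30.1% of the UMIs of Psmb8 and Psmb5. Psmb9 made up 1.32, 4.46, 18.5 and 13.7% of those of Psmb9 and Psmb6. Psmb10 made up 8.33, 22.2, 46.1 and 20% of those of Psmb10 and Psmb7. After reversal the β2 pair was thus back within the interval of its day 2 share (18.9 to 25.8%), while the β5 pair (28.0 to 32.2%, against 10.7 to 14.7% on day 2) and the β1 pair (12.2 to 15.4%, against 3.25 to 5.96%) stayed above theirs.

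**Figure D1:**
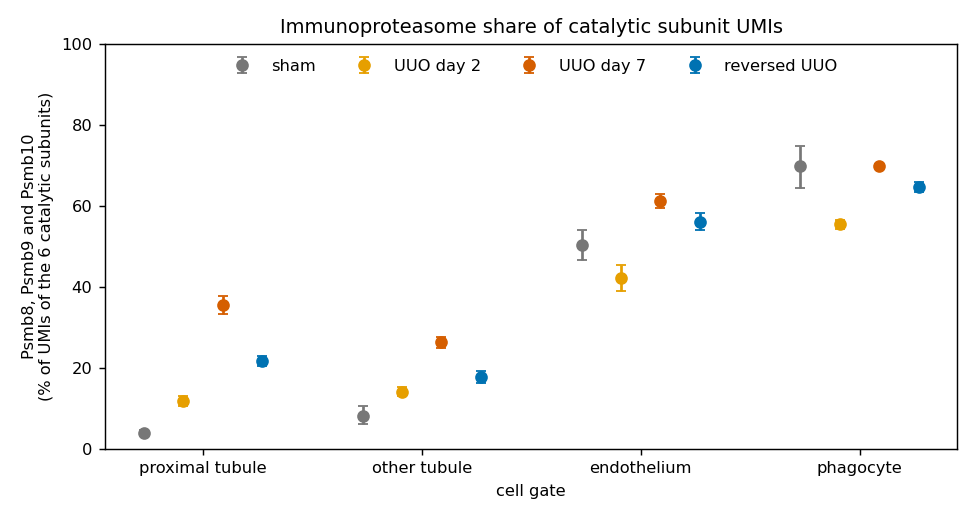
Immunoproteasome share of the 6 catalytic genes' UMIs (y axis, percent) in sham, day 2, day 7 and reversed libraries, by cell gate. Points are 1 library each and bars are exact 95% binomial intervals for counting error. Proximal tubule goes from 3.93% in sham to 35.5% on day 7 and 21.7% after reversal, while phagocytes are between 55.4 and 69.8% throughout.

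The levels show that the change of share came from the immunoproteasome genes more than from their partners. Levels are UMIs of a gene scaled to a fixed total of non-mitochondrial UMIs (CPM), summed over the cells of a gate, and 3′ UMIs need no scaling by transcript length, although how well a transcript is captured can differ between genes. Psmb8 in proximal tubule was at 10.6 CPM in sham (71 UMIs, Poisson interval 8.30 to 13.4), 50 on day 2 (140 UMIs, interval 42.1 to 59.0), 220.1 on day 7 (354 UMIs, interval 198 to 244) and 98.8 in the reversed library (580 UMIs, interval 90.9 to 107). Psmb9 was at 3.74, 15.4, 74.0 and 42.6 CPM from 25, 43, 119 and 250 UMIs. Psmb10 was at 12.3, 45.7, 131 and 36.8 CPM from 82, 128, 210 and 216 UMIs. For all 3 genes sham was the lowest and day 7 the highest library, with intervals apart from those of the other 3 libraries.

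Psmb5 was at 237, 347, 291 and 229.8 CPM in the same cells, highest on day 2. Psmb6 was at 279, 329, 326 and 268 CPM, and Psmb7 at 135, 160.0, 153 and 147 CPM. On day 7, when the partners came closest, Psmb5 (291 CPM, interval 265 to 319) was still above Psmb8 (198 to 244), and Psmb6 (326 CPM) was far above Psmb9 (74.0 CPM). Psmb7 (153 CPM, 134 to 173) and Psmb10 (131 CPM, 113 to 149) had overlapping intervals there.

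On the log2(CPM + 1) scale, Psmb8 was higher by 2.13 on day 2 than in sham (interval 1.74 to 2.54), by 2.12 on day 7 than on day 2 (1.83 to 2.40) and by 4.25 on day 7 than in sham (3.90 to 4.61). It was lower by a log2 ratio of -1.15 after reversal than on day 7 (-1.34 to -0.95) and still higher by 3.10 than in sham (2.77 to 3.45). Psmb9 gave 1.79, 2.20, 3.98, -0.78 and 3.20 for these 5 comparisons, and Psmb10 1.82, 1.49, 3.31, -1.80 and 1.51. In every comparison but reversed over day 7, these were the 3 largest log2 ratios of all tested members. Of the standard partners, Psmb5 had the largest ratio, 0.55 on day 2 over sham (0.43 to 0.66), and -0.05 after reversal over sham (-0.15 to 0.06).

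**Figure D2:**
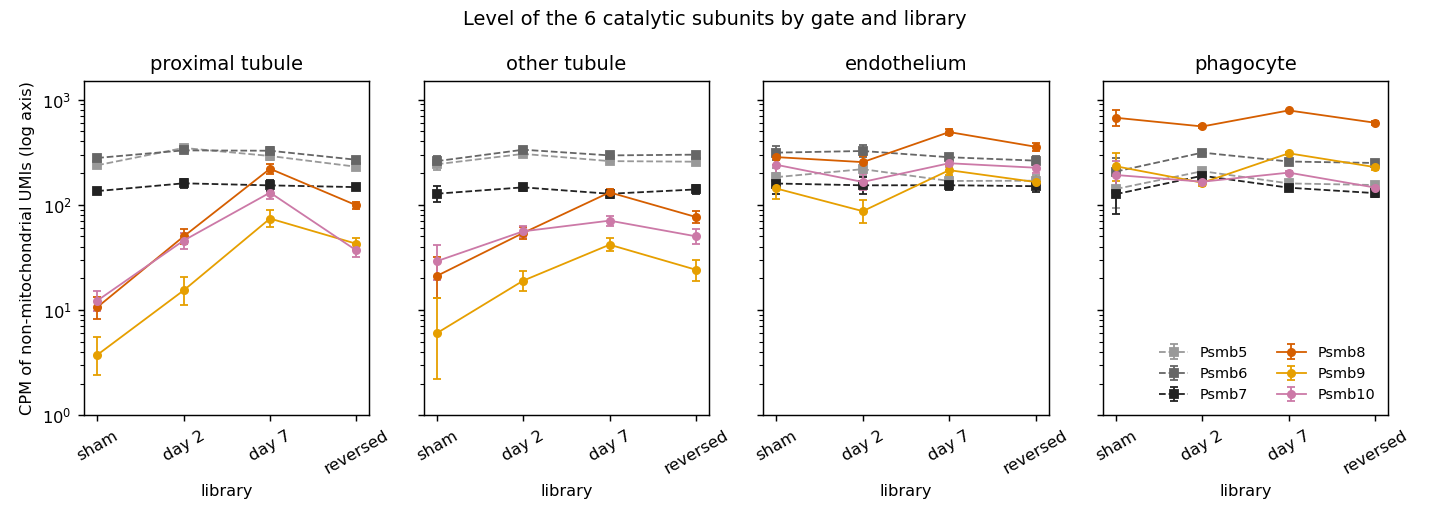
Levels of the 6 catalytic genes in each gate and library (y axis, CPM of non-mitochondrial UMIs, log scale), with immunoproteasome genes as coloured circles and their standard partners as grey to black squares. Points are 1 library each with exact Poisson 95% intervals. In proximal tubule, Psmb8 goes from 10.6 to 220.1 CPM between sham and day 7 while Psmb5 stays between 229.8 and 347 CPM.

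Phagocyte RNA outside phagocytes moved with these values. Phagocyte genes held out of the gating (C1qa, C1qb, C1qc, Lyz2, Tyrobp and Fcer1g) summed to 96.3, 657, 2762 and 1153 CPM in proximal tubule cells, which is 0.407, 3.21, 10.6 and 3.90% of their level in the phagocytes of the same library. The same percentages of the phagocytes' Psmb8 level come to 2.73, 17.8, 83.2 and 23.5 CPM, against the 10.6, 50, 220.1 and 98.8 CPM measured in proximal tubule. For Psmb9 they come to 0.944, 5.20, 32.6 and 8.88 CPM against 3.74, 15.4, 74.0 and 42.6. For Psmb10 they come to 0.780, 5.32, 21.3 and 5.68 CPM against 12.3, 45.7, 131 and 36.8. The measured level was thus above the phagocyte portion for all 3 genes in all 4 libraries.

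With the phagocyte profile subtracted on this basis, the proximal tubule share was 3.30, 9.23, 28.8 and 18.3%. With free RNA subtracted it was 1.97, 8.11, 24.8 and 13.7%. Free RNA was taken as the summed profile of all cells of the library, scaled by held-out genes of other classes. That profile holds the proximal tubule cells' own RNA too. Among proximal tubule cells at or below their library's median for the held-out phagocyte genes it was 3.75, 10.5, 36.0 and 17.2%, where those genes stood at 0, 1.54, 8.22 and 2.46% of the phagocyte level. Among the cells above that median it was 4.82, 13.0, 34.9 and 26.5%. The order of the 4 libraries was the same in each case, and subtraction of the phagocyte profile alone and the split of cells at the median were settings chosen after seeing the data.

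**Figure D3:**
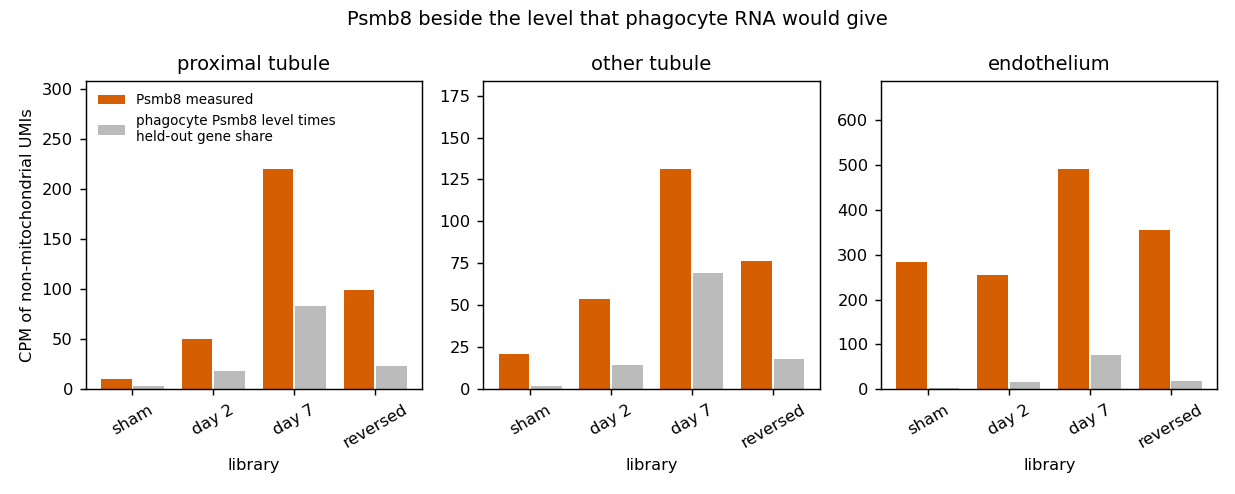
Psmb8 level (y axis, CPM of non-mitochondrial UMIs, with its own scale in each panel) measured in tubule and endothelial gates (orange bars), beside the phagocytes' Psmb8 level multiplied by the share of held-out phagocyte genes (grey bars), by library. On day 7 the portion is 83.2 of 220.1 CPM for Psmb8 in proximal tubule and 69.1 of 131 CPM in other tubule.

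The mitochondrial limit moved the sham and reversed values of the proximal tubule. With at most 20% mitochondrial UMIs per cell instead of 50%, the shares were 7.70, 13.0, 36.6 and 29.6%. With cells thinned to 1000 UMIs, mitochondrial ones included, they were 3.38, 7.64, 31.3 and 16.8%. Cells with fewer UMIs were left out of that setting. The order of the libraries was kept under both settings, and the part of cell quality in the size of the steps was not tested.

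Summed over segments and cells with no segment called, tubule cells not called proximal followed the same order with a smaller span. Their immunoproteasome share was 8.19, 14.1, 26.3 and 17.8%, with intervals of 6.24 to 10.5%, 13.1 to 15.2%, 25.0 to 27.7% and 16.4 to 19.3%. By segment markers, loop of Henle cells had 7.43, 14.3, 25.4 and 19.4%, and collecting duct cells 8.20, 14.6, 25.6 and 13.5%, where the reversed value was below that of day 2 with overlapping intervals (11.6 to 15.6% and 12.9 to 16.3%). Distal tubule cells had 0 of 25 UMIs in sham (14 cells, exact interval up to 13.7%), then 12.1, 29.0 and 15.9%. Tubule cells with no segment called had 10.96, 11.7, 30.4 and 24.8%, and gave 138 of the 475 immunoproteasome UMIs of other tubule after reversal. The higher summed share after reversal than on day 2 thus rested in part on them. Loop of Henle cells had separate intervals for that step (12.8 to 15.9% on day 2, 16.8 to 22.2% after reversal). The sum without the cells of no called segment was not tested. On day 7 the proximal share of 35.5% lay above the intervals of the loop (23.2 to 27.6%) and collecting duct (23.6 to 27.6%) but within that of the distal tubule (21.7 to 37.1%), although in sham the proximal share was below the 8.19% of all other tubule cells. This sham order turned with at most 20% mitochondrial UMIs (7.70% in proximal and 6.64% in other tubule) and with thinned cells (3.38 and 2.63%).

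Psmb8 in these other tubule cells was at 21.1, 54.0, 131 and 76.5 CPM. Psmb9 was at 6.02, 19, 41.7 and 24.1 CPM, and Psmb10 at 29.1, 55.9, 70.7 and 50.1 CPM. Sham was lowest and day 7 highest for each gene. The held-out phagocyte genes stood at 0.246, 2.56, 8.76 and 3.03% of the phagocyte level, a portion that would give Psmb8 1.65, 14.2, 69.1 and 18.2 CPM and Psmb9 0.570, 4.14, 27.0 and 6.89 CPM. With phagocyte RNA subtracted, Psmb9 no longer had its highest level on day 7, at a log2 ratio of 0.13 after reversal over day 7 (-0.38 to 0.64). With free RNA subtracted as the profile of all cells of the library, day 7 was below day 2 for each gene. The log2 ratios were -4.67 for Psmb8, -3.55 for Psmb9 and -1.0 for Psmb10. Subtraction left no day 7 UMIs of Psmb8 and Psmb9, so the size of their ratios was set by the pseudocount. Psmb10 then also had -0.23 on day 7 over sham (-0.87 to 0.46). Subtraction of phagocyte RNA left shares of 7.84, 12.2, 17.0 and 15.1%, whereas subtraction of free RNA left 7.44, 9.69, 3.39 and 11.8%. The day 7 maximum of the share in other tubule was therefore lost under the latter setting, where the day 7 share rested on Psmb10 alone. That setting estimated 29.5% of these cells' non-mitochondrial day 7 UMIs to be free RNA.

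Mononuclear phagocytes carried a high immunoproteasome share in every library, and it was lowest on day 2. The share was 69.8% in sham, from 217 of 311 UMIs (interval 64.3 to 74.8%), and 55.4% on day 2 (interval 54.4 to 56.4%). Day 7 gave 69.8% (interval 69.3 to 70.3%) and reversal 64.7% (interval 63.5 to 65.8%). The day 2 interval was apart from the other 3, and sham and day 7 overlapped. Psmb8 was the leading catalytic gene at 671, 555, 788 and 602 CPM, against 141, 209, 159.6 and 154 CPM for Psmb5. Psmb9 was at 232, 162, 309 and 228 CPM beside Psmb6 at 207, 313, 258 and 249.6 CPM, so Psmb6 was the higher of this pair on day 2 (intervals 152 to 173 and 299 to 328). It was also the higher one in the reversed library, where Psmb9 made up 47.7% of the pair's UMIs (interval 45.5 to 49.9%). Psmb10 was at 192, 166, 202 and 146 CPM beside Psmb7 at 126, 189, 145 and 129 CPM.

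Day 2 thus combined the lowest level of Psmb9 with the highest level of all 3 standard partners among the phagocyte libraries. Psmb9 had a log2 ratio of -0.52 on day 2 over sham (-0.94 to -0.06) and of 0.92 on day 7 over day 2 (0.82 to 1.03). Psmb5 had 0.56 (0.02 to 1.15) and -0.38 (-0.48 to -0.28), and Psmb8 had -0.27 (-0.52 to -0.01) and 0.51 (0.45 to 0.56). With thinned cells the day 2 over sham values of Psmb8 and Psmb7 turned sign, to 0.11 and -0.031. The sham phagocytes were only 57 cells, which sets the width of the intervals against sham. Tubule genes held out of the gating (Kap, Miox, Gpx3, Fxyd2, Ttc36 and Cyp4b1) stood in phagocytes at 7.96, 2.76, 2.16 and 6.37% of the proximal tubule level, and their part in these values was not tested. With free RNA subtracted, the phagocyte share was 72, 56.9, 71.1 and 66.7%. Of all processing settings run on this share, each kept day 2 the lowest library.

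Endothelial cells stood between tubule and phagocytes and, like the phagocytes, had their lowest share on day 2. The share was 50.4, 42.1, 61.2 and 56.1%, with intervals of 46.7 to 54.1%, 38.9 to 45.4%, 59.5 to 62.9% and 54.0 to 58.3%. Psmb8 was at 284, 254, 491 and 356 CPM, Psmb9 at 143, 87.0, 213 and 164 CPM and Psmb10 at 239.9, 165, 248 and 225 CPM. On day 7 over day 2, Psmb9 had the largest log2 ratio of the members, 1.29 (0.92 to 1.67), and Psmb8 the next, 0.95 (0.72 to 1.17). The phagocyte portion of endothelial Psmb8, by the held-out genes, came to 1.76, 15.1, 77.3 and 19.2 CPM. T and NK cells, from 19 cells in sham and 123 to 318 in the others, had shares of 71.8, 62.6, 70.2 and 72.5%.

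The step from sham to day 2 therefore had opposite signs by cell type. It was 7.80 percentage points up in proximal tubule and 5.93 up in other tubule, while phagocytes stood at -14.4 points and endothelium at -8.30 points. With cells thinned to 1000 UMIs, and smaller cells left out, most of the endothelial step was lost. The endothelial share was then 48.6% in sham and 47.9% on day 2, whereas phagocytes went from 69.9 to 60.3%. With 1 library per time point, the difference between cell types was not tested.

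In proximal tubule the rest of the particle moved less than the immunoproteasome genes. The 31 standard 20S and 19S subunits comprise 7 alpha and 4 non-catalytic beta subunits, the 3 standard catalytic ones, 9 of the 19S base and 8 of the 19S lid. In proximal tubule their median log2 ratio was 0.23 on day 2 over sham, 0.10 on day 7 over day 2, 0.33 on day 7 over sham, -0.26 after reversal over day 7 and 0.12 after reversal over sham. The medians of all genes tested were 0.08, 0.18, 0.29, -0.03 and 0.21. With edgeR's TMM scaling, whose factors shift every log2 ratio by -0.16, -0.22, -0.38, 0.03 and -0.35, the subunits' medians became 0.07, -0.12, -0.05, -0.23 and -0.23. The sign of the medians for day 7 over day 2, day 7 over sham and reversed over sham thus turned with the scaling, and no direction is given for them.

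Counted by a 1.5-fold limit, 2 of the 31 were higher on day 2 than in sham, Psmd8 and Psmd7 of the lid, against 15.4% of all genes tested. On day 7 over sham 5 of 31 were higher, against 35.1% of all genes, so on this scale both shares lay below the background. With CPM over all UMIs 4 of 31 were higher on day 2 over sham, against 24.5% of all genes, but 24 of 31 on day 7 over sham, against 51.7%, so the latter share lay above the background there. With TMM 1 and 0 of 31 were higher, against 11.2 and 20.7%, and 1 was lower on day 7 over sham, against 25.4%. Psmd8 was at 126, 225, 224 and 129 CPM, with log2 ratios of 0.83 on day 2 over sham (0.68 to 0.98) and -0.79 after reversal over day 7 (-0.97 to -0.60). Psmd11, a lid subunit known for its part in proteasome assembly, was at 74.0, 85.3, 138 and 100.3 CPM and was the 1 of 31 past 1.5-fold on day 7 over day 2 (background 22.8%). Psma5, an alpha subunit, was at 78.4, 102, 136 and 88.6 CPM. It and Psmd8 were the 2 of 31 past 1.5-fold lower after reversal than on day 7, where 9.96% of all genes were. Under the other settings these 2 counts ranged from 0 to 5 (5 with thinned cells, against 21.2% of all genes) and from 1 to 5 (5 with cluster classes, against 20.4%, and with CPM over all UMIs, against 16.2%). Psmd3, also of the lid, went the other way at 103, 86.1, 69 and 90.8 CPM. Psmb4, a non-catalytic beta subunit, was at 163, 191, 159 and 155 CPM, with -0.27 on day 7 over day 2 (-0.49 to -0.05).

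**Figure D4:**
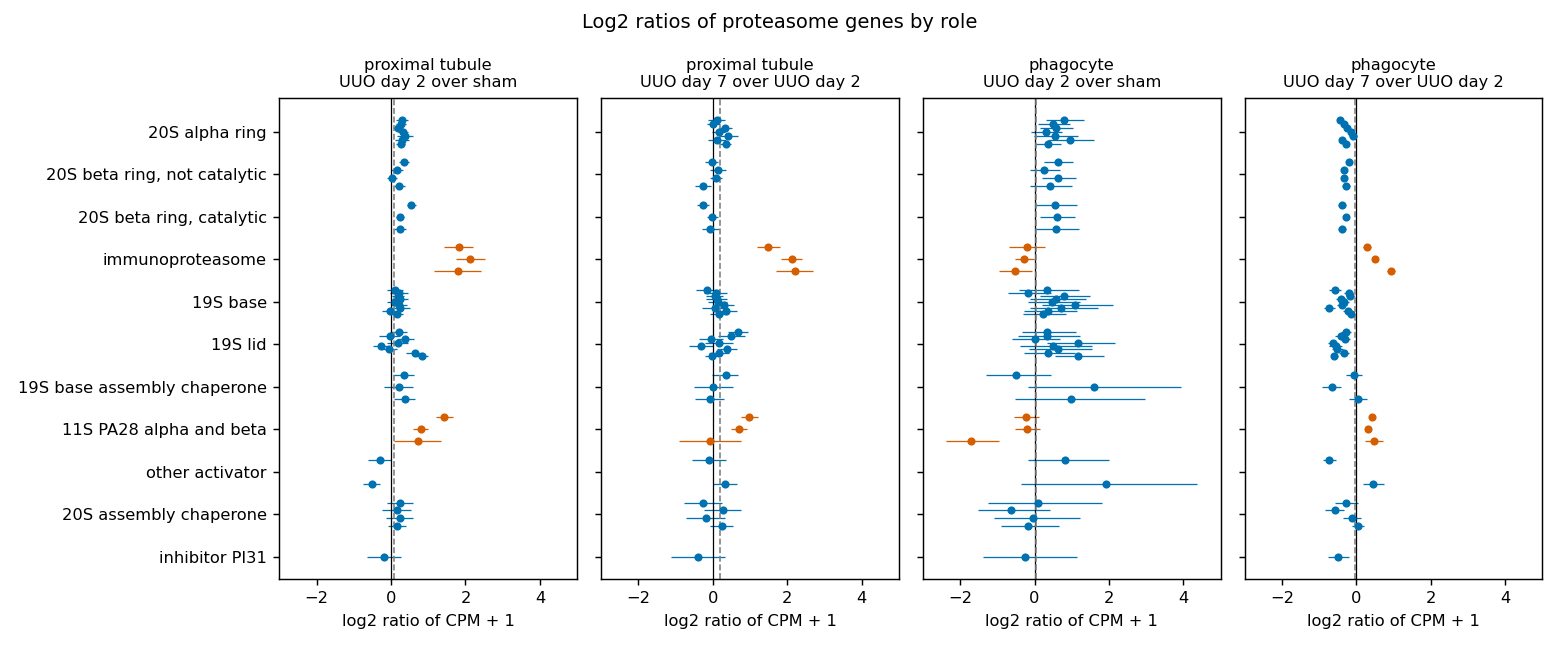
Log2 ratio of CPM + 1 (x axis) for each tested member by role (y axis), for day 2 over sham and day 7 over day 2 in proximal tubule and phagocytes. Each point is 1 gene with its exact 95% counting interval, orange marks the immunoproteasome and PA28 alpha and beta rows, and the dashed line is the median of all genes tested. The immunoproteasome genes stand apart in proximal tubule, at 1.79 to 2.13 on day 2 over sham, while the standard 20S and 19S subunits lie between -0.26 and 0.83.

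In phagocytes the median of the standard subunits was above 0 on day 2 over sham and below 0 on day 7 over day 2, with most single subunits within 1.5-fold. Their median log2 ratio was 0.54 on day 2 over sham, with 30 of 31 above 0, against 0.05 for all genes tested. It was -0.33 on day 7 over day 2, with 0 of 31 above 0, against -0.04 for all genes. Under the other settings these medians ranged from 0.47 to 0.66 and from -0.38 to -0.32. On day 2 over sham 11 of 31 passed 1.5-fold upwards, against 26.7% of all genes, and on day 7 over day 2, 3 of 31 passed it downwards (background 11.1%). Under the other settings the first count ranged from 9 with a pseudocount of 10 CPM (20.6% of all genes) to 19 with TMM (30.9%), with 16 in thinned cells (33.9%). The second ranged from 1 with that pseudocount (6.33%) to 6 in thinned cells (16.6%).

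Examples in phagocytes were the deubiquitinase Psmd14 of the lid at 55.5, 127, 81.8 and 71.4 CPM (11 UMIs in sham), Psmd8 at 101, 228, 151 and 158 CPM, and the base ATPase Psmc6 at 50.5, 107, 82.1 and 66.5 CPM. Day 2 was the highest library for each of them. Their log2 ratios on day 2 over sham were 1.17 (0.34 to 2.16), 1.17 (0.54 to 1.87) and 1.08 (0.20 to 2.11). Psmd1, the large scaffold of the base, was at 55.5, 92.0, 55.4 and 63.7 CPM, with -0.72 on day 7 over day 2 (-0.88 to -0.56). In endothelium, the median of the 31 was 0.02, 0.00, -0.04, -0.09 and -0.12 for the 5 comparisons, and no subunit passed 1.5-fold in the first 3 of them. The sign of these endothelial medians turned in 12 of 60 values under other settings, all in the first 3 comparisons, so no direction is given for those. The medians after reversal stayed below 0, at -0.14 to -0.04 over day 7 and -0.21 to -0.06 over sham.

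Over all members tested, including the immunoproteasome genes, 9 of 48 were higher and 0 lower by 1.5-fold in proximal tubule on day 2 over sham (background 15.4 and 9.12% of all genes tested), and 6 of 48 higher and 0 lower on day 7 over day 2 (22.8 and 5.91%). On day 7 over sham 12 of 47 were higher and 0 lower (35.1 and 12.5%). After reversal over day 7, 0 of 47 were higher and 9 lower (9.27 and 9.96%), and over sham 4 of 46 were higher and 0 lower (27.3 and 3.73%). On this scale the members higher by this limit were thus near or below the background share in these comparisons, and the 9 lower after reversal over day 7 were above theirs: Psmb8, Psmb9, Psmb10, Psme1, Psme2, Psme2b, Psma5, Psmd8 and Psmd10. With TMM the counts on day 7 over sham were 5 higher and 3 lower, against 20.7 and 25.4% of all genes.

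In other tubule the counts were 8 of 47 higher and 0 lower on day 2 over sham (background 10.3 and 22.9%), 2 and 0 on day 7 over day 2 (12 and 4.79%), and 7 and 0 on day 7 over sham (16.3 and 22.2%). After reversal they were 0 and 2 over day 7 (8.59 and 3.97%), and 6 and 1 over sham (15 and 13.5%). In phagocytes 16 of 48 were higher and 2 lower on day 2 over sham (26.7 and 23.1%), and 1 was higher and 6 lower on day 7 over day 2 (16.6 and 11.1%). On day 7 over sham 5 of 47 were higher and 3 lower (25.2 and 20.5%), after reversal over day 7 0 and 0 (4.39 and 2.27%), and over sham 4 and 6 (26.3 and 18.9%). In endothelium 1 of 47 was higher and 5 lower on day 2 over sham (11.1 and 14.7%), 6 and 0 on day 7 over day 2 (16.4 and 11.4%), and 2 and 3 on day 7 over sham (17.1 and 16.3%). After reversal they were 0 and 2 over day 7 (6.66 and 6.5%), and 0 and 5 over sham (16.4 and 13.5%).

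The activators split by kind. PA28 alpha (Psme1) in proximal tubule was at 43.1, 117, 234 and 122 CPM, and PA28 beta (Psme2) at 75.2, 131, 213 and 102 CPM, so both were lowest in sham and highest on day 7. Their log2 ratios on day 7 over sham were 2.41 (2.19 to 2.64) and 1.49 (1.29 to 1.69). PA28 gamma (Psme3) was at 51.2, 41.4, 38.5 and 48.9 CPM and PA200 (Psme4) at 95.6, 66.4, 83.9 and 119 CPM, neither of them past 1.5-fold in any of the 5 comparisons. Psme1 and Psme2 together made up 69.8, 85.7, 92.1 and 82.1% of the UMIs of Psme1, Psme2 and Psme3. The transcripts of Psme2 and of its near-identical copy Psme2b (6.28, 11.1, 10.6 and 6.47 CPM) could be split between the genes in counting, so the level of each is uncertain.

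Other tubule cells differed from the proximal ones in Psme1, which was already at 162 CPM in sham and then at 174, 218 and 193 CPM, a log2 ratio of 0.11 on day 2 over sham (-0.14 to 0.36). Psme2 there was at 86.3, 180.4, 170.1 and 142 CPM, with a ratio of 1.06 (0.74 to 1.39). In phagocytes Psme1 was at 404, 347, 463 and 387 CPM and Psme2 at 374, 326, 405 and 282 CPM, both lower on day 2 than on day 7. Psme3 in phagocytes had its highest level on day 2, at 40.4, 71.7, 42.8 and 38.6 CPM, with -0.73 on day 7 over day 2 (-0.91 to -0.55). Psme4 in phagocytes rested on 1 UMI in sham (5.05 CPM) and was at 22.1, 30.5 and 34.4 CPM in the later libraries, so its log2 ratio on day 2 over sham was 1.93 with an interval from -0.36 to 4.36. Endothelial Psme1 was at 239.9, 240.1, 342 and 297 CPM and Psme2 at 280.1, 228, 274 and 216 CPM.

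The chaperones that build the 20S rings (Psmg1 to Psmg4) had ratios between 0.15 and 0.25 in proximal tubule on day 2 over sham, and none passed 1.5-fold there in any comparison. Psmg2 in phagocytes was at 50.5, 32.4, 21.3 and 15.7 CPM, from 10 UMIs in sham, with -1.63 after reversal over sham (-2.57 to -0.54). Psmg4 in endothelium was at 69.6, 29.8, 58.1 and 52.5 CPM, the smallest ratio of all members on day 2 over sham there at -1.19 (-1.98 to -0.43). Among the chaperones of the 19S base, Psmd10 (gankyrin) in proximal tubule was at 45.0, 57.1, 72.7 and 40.7 CPM and Psmd5 at 25.0, 28.9, 29.2 and 24.9 CPM. Psmd9, of the same group, was among the 3 smallest ratios there after reversal over sham, at 41.6, 53.9, 51.0 and 36.6 CPM, with an interval that included 0 (-0.44 to 0.08). Psmf1, which encodes the inhibitor PI31, was at 20.8, 18.2, 13.7 and 18.2 CPM in proximal tubule and at 30.3, 25.3, 17.7 and 15.5 CPM in phagocytes. Its intervals for the ratio on day 7 over sham included 0 in both, at -1.23 to 0.05 and -1.85 to 0.64.

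Genes of the same pathway outside the symbol rule moved with the immunoproteasome genes in proximal tubule. Of the MHC class I list, 12 genes of peptide loading and presentation, 8 of 11 tested were higher by 1.5-fold and 0 lower on day 2 over sham, with a median log2 ratio of 0.95, against 15.4% of all genes higher. On day 7 over sham 9 of 12 were higher (background 35.1%), with a median of 2.14. After reversal over day 7, 9 of 12 were lower (background 9.96%), with a median of -0.97. Tap1, the peptide transporter, was at 2.54, 11.8, 46.0 and 22.5 CPM. B2m, the light chain of MHC class I, was at 563, 1085, 2353 and 1160.1 CPM, of which the phagocyte portion by held-out genes came to 25.1, 120.4, 579 and 189.8 CPM. Nlrc5, the transactivator of MHC class I genes, was at 0.449, 1.43, 11.8 and 4.77 CPM from 3, 4, 19 and 28 UMIs. Canx, a chaperone of the list that also serves general protein folding, had -0.33 on day 2 over sham (-0.44 to -0.22).

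Of the interferon signalling list, 13 receptors, kinases and transcription factors, 8 of 10 tested were higher in proximal tubule on day 2 over sham, with a median of 0.86, and 12 of 12 on day 7 over sham, with a median of 1.90. Of all genes tested, 15.4 and 35.1% were higher in these comparisons. Held-out phagocyte genes stood in these cells at 0.407, 3.21 and 10.6% of the phagocyte level in sham, day 2 and day 7. The part of phagocyte RNA in the proximal tubule counts of this list and of the MHC class I list was not tested. Irf1 was at 4.19, 18.6, 37.9 and 19.1 CPM and Irf7 at 4.04, 22.9, 58.4 and 23.0 CPM. Both were lowest in sham and highest on day 7. Irf8, a factor of myeloid cells, was at 10.3, 20.7, 48.5 and 62.5 CPM in these tubule cells. Proteasome partners such as shuttle factors and regulators gave other counts. Of these, 0 of 17 were past 1.5-fold in either direction on day 2 over sham, and 5 of 17 were higher on day 7 over sham, below the background of 35.1%. Pomp, the maturation factor of the 20S core, was at 278, 266, 310.2 and 249 CPM, and Nfe2l1, which drives standard proteasome genes when proteolysis falls short, was at 38.3, 43.6, 60.3 and 69.8 CPM.

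In phagocytes the medians of the same 2 lists were below 0 on day 2 over sham. Of the MHC class I list 2 of 12 were higher and 7 lower than in sham, with a median of -0.73, and of the interferon list 0 of 13 were higher and 6 lower, with a median of -0.58, where 26.7% of all genes were higher and 23.1% lower. On day 7 over day 2 the medians were 0.61 and 0.63, with 6 of 12 and 7 of 13 higher and 0 lower (background 16.6 and 11.1%). Irf1 was at 75.7, 34.5, 67.2 and 64.4 CPM and Stat2 at 60.6, 11, 45.5 and 37.9 CPM, each lowest on day 2. Tap1 was at 106, 85.8, 150.2 and 116 CPM. The deubiquitinases that dock on the 19S cap were highest on day 2, with Usp14 at 25.2, 67.6, 43.8 and 43.1 CPM and Uchl5 at 30.3, 74.9, 44.0 and 35.1 CPM. In endothelium 3 of 12 and 7 of 13 were higher on day 7 over day 2, with medians of 0.47 and 0.62 and a background of 16.4%, so the MHC class I count of 3 was near the background share. In other tubule 6 of 11 and 9 of 12 were higher on day 7 over sham, with medians of 0.75 and 1.07 (background 16.3%). B2m there was at 246, 425, 738 and 635 CPM, of which the phagocyte portion by held-out genes came to 15.2, 95.9, 480.3 and 147 CPM, and the part of phagocyte RNA in these list counts was not tested. These lists were written with earlier results of these data known, and their counts are a description.

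Levels over the 16 gate and library sums were compared with the mean log2 level of Psmb8, Psmb9 and Psmb10, among 10337 genes past a minimum CPM. Most alike were Slfn2 and Tap1 (Pearson r of 0.988 each), Ifngr2 (0.983), H2-D1, Ier5 and H2-M3 (0.979 each), Marcks (0.970), and Bcl10, Cd40 and Oas1a (0.967, 0.967 and 0.966). The sums share libraries and their free RNA, so these values describe likeness and carry no p. Slfn2 was at 3.44, 17.9, 61.5 and 35.8 CPM in proximal tubule and at 323, 329, 442 and 348 CPM in phagocytes. Of the other members, Psme2 (0.943), Psme1 (0.913) and Psma5 (0.899) came nearest.

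The Smart-seq2 wells gave a further view of the phagocytes by a method that reads whole transcripts. Of 768 wells, 725 had at least 1000 genes and 713 of these met the phagocyte gate, at a median of 121317 reads per well. The time point of each well is not given in the sources used here, so the wells form 1 mixed sample. Scaled by merged exon length, mean levels were 138 RPKM for Psmb8 and 84.4 for Psmb5, 65.6 for Psmb9 and 125 for Psmb6, and 91.8 for Psmb10 and 17.3 for Psmb7. The immunoproteasome share of the summed RPKM of these 6 genes was 56.6%, and by pair it was 62.0% for β5, 34.5% for β1 and 84.1% for β2. Psme1 and Psme2 stood at 136 and 131 RPKM and Psme3 at 9.61. As in the droplet phagocytes, Psmb8 was above Psmb5 and Psme3 was the lowest of these activators. The pair shares differed from those of the droplet phagocytes, which were 72.7 to 83.2% for β5, 34.1 to 54.5% for β1 and 46.7 to 60.3% for β2. Scaled by length, the Smart-seq2 share was thus below the droplet range for β5, near its lowest value for β1, and above it for β2. The β5 placement turned with the length scaling (3381 bp for Psmb8 and 899 bp for Psmb5). By unscaled reads, β5 lay above the droplet range (110931 for Psmb8, 19495 for Psmb5). The β1 pair lay well inside it (61815 reads for Psmb9, 65676 for Psmb6) and β2 still above it. No direction is therefore given for β5.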

How the data were processed

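For each droplet library the authors deposited a sparse matrix of raw UMI counts, and for the Smart-seq2 plates a table of raw read counts by gene and well. The submitters' processing notes name Cell Ranger, STAR, GRCm38 and mm10, without versions or roles. Members and gene lists were chosen with earlier results of these data known, and the marker minimum and lead were set once markers per cell had been seen.

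A cell was kept if it had 200 or more genes and no more than 50% of its UMIs were mitochondrial. The highest Scrublet scores (scanpy 1.11.5) were removed at 0.8% per 1000 deposited cells, 50 to 185 cells per library. A cell needed 3 distinct markers of a class and a lead of 2 over every other class, and a proximal tubule cell 2 proximal markers and more than of any other segment. UMIs were summed per library and gate and scaled to CPM without mitochondrial genes. Ratios were taken as log2(CPM + 1), a pseudocount that understates changes of low genes, for genes with at least 10 CPM in 1 library and 20 UMIs over both. Intervals are exact (Clopper-Pearson for shares, Poisson for levels, conditional binomial for ratios) at 95% and cover counting error only. With 1 library per time point no test was run. A gene was counted as higher or lower past a fold of 1.5.

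Named were the catalytic, PA28 and PA200 genes, the 3 largest and 3 smallest ratios per gate and comparison, chosen pathway genes by the same rule with Irf1, Nlrc5, Tap1, B2m, Nfe2l1 and Pomp, and the 10 genes most like the immunoproteasome. Psma5, Psmc6, Psmd7 and Psmd11 were chosen as examples after their values were seen. The rule's genes are printed for some of their gates and comparisons only, and 1 gene is not reported here. Smart-seq2 counts were scaled to RPKM by merged exon length. The ratio script was tested on simulated data. Alternatives were a mitochondrial limit of 20%, no doublet removal, a lead of 4, Leiden cluster classes (leidenalg 0.10.2, 33 clusters), cells thinned to 1000 UMIs, free RNA subtracted, CPM over all UMIs, TMM (edgeR 4.0.16), a pseudocount of 10, no filter and a fold of 2. Free RNA was the summed non-mitochondrial profile of all deposited cells of a library, the gate's own cells included. Thinning counted mitochondrial UMIs and left out cells with fewer than 1000 UMIs. Scripts ran in Python 3.11.15 with scipy 1.17.1, numpy 2.4.6 and pandas 2.3.3.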

Additional observations from a re-analysis of the deposited data

Results flagged for a closer look

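The change of the immunoproteasome share from sham to day 2 went in opposite directions in different cell types, which is why it is listed here. In percentage points, day 2 minus sham was 7.80 in proximal tubule (3.93 to 11.7%) and 5.93 in other tubule (8.19 to 14.1%), but -14.4 in phagocytes (69.8 to 55.4%) and -8.30 in endothelium (50.4 to 42.1%). With cells thinned to 1000 UMIs the endothelial values were 48.6 and 47.9%, so most of that step was lost. Each gate gave 1 value per library, so the difference between cell types was not tested.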

How the results depend on the processing

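No paired analysis was possible because each time point was 1 library, and for the same reason no replicate could be left out. The steps of the immunoproteasome share between libraries (sham to day 2, day 2 to day 7, day 7 to reversed) kept their direction under all settings in proximal tubule, phagocytes and endothelium, and in other tubule under all but subtraction of all free RNA. Of 350 values of shares and of standard subunit medians under other settings, 302 stayed within the counting interval and 48 did not. The sign of the subunit medians turned in 3 of 60 values in proximal tubule (all 3 with TMM), 4 of 60 in other tubule, 1 of 50 in phagocytes and 12 of 60 in endothelium. The cause of these shifts was not tested. The 57 sham phagocytes, with 311 UMIs of the catalytic genes, limit the precision against sham.

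For proximal tubule in the order sham, day 2, day 7 and reversed, the share was 1.97, 8.11, 24.8 and 13.7% with free RNA subtracted, 3.30, 9.23, 28.8 and 18.3% with phagocyte RNA subtracted (added after the data had been seen) and 3.38, 7.64, 31.3 and 16.8% with thinned cells. A value of 7.70% in sham and 29.6% after reversal came with at most 20% mitochondrial UMIs, 3.38% in sham and 13.7% after reversal with cluster classes, 13.5% on day 2 without doublet removal, 10.4% on day 2 and 16.9% after reversal with a lead of 4 markers, and 10.5% on day 2 and 17.2% after reversal in cells at or below the median of held-out phagocyte genes (also added). For other tubule it was 9.69, 3.39 and 11.8% on day 2, day 7 and after reversal with free RNA subtracted, 12.2, 17.0 and 15.1% with phagocyte RNA subtracted, 2.63% in sham, 24.4% on day 7 and 21.1% after reversal with thinned cells, and 12.6% on day 2 in cells at or below that median. Phagocytes had 60.3% on day 2 and 68.4% in the reversed library with thinned cells, 56.9, 71.1 and 66.7% on day 2, day 7 and after reversal with free RNA subtracted, and after reversal 62.9% with a lead of 4 and 66.8% with cluster classes. For endothelium it was 48.6% in sham, 47.9% on day 2 and 64.3% on day 7 with thinned cells, and 58.5% on day 7 in cells at or below the median.

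The median log2 ratio of the 31 standard 20S and 19S subunits in proximal tubule was 0.44 on day 2, 0.67 on day 7 and 0.29 after reversal over sham with CPM over all UMIs, 0.10 on day 7 over sham with at most 20% mitochondrial UMIs, and -0.046 on day 7 and -0.23 after reversal over sham with TMM factors. In other tubule it was 0.50 on day 7 over sham with CPM over all UMIs.

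Of 2284 log2 ratios of single catalytic and activator genes under other settings, 242 left the counting interval, and 27 of these turned sign from an interval that left out 0, as follows. In proximal tubule with thinned cells, Psme4 was at -0.021 on day 7 over day 2, and Psmb6 at -0.18 on day 7 over sham and 0.015 after reversal over day 7. With at most 20% mitochondrial UMIs, Psmb6 was at -0.0044 and Psme3 at 0.38 on day 7 over sham. With TMM factors, Psmb5 was at -0.091 and Psmb6 at -0.16 on day 7 over sham, and Psme4 at -0.042 after reversal over sham. In other tubule with thinned cells, Psmb7 was at 0.012 and Psme1 at -0.0082 on day 7 over day 2, Psmb9 at 0.30 and Psme1 at 0.18 after reversal over day 7, and Psmb6 at -0.16 after reversal over sham. There with free RNA subtracted, day 7 over day 2 gave -4.67 for Psmb8, -3.55 for Psmb9, -1.0 for Psmb10 and -0.23 for Psme1, day 7 over sham -0.23 for Psmb10 and -0.29 for Psme1, and reversed over day 7 5.44 for Psmb8, 0.80 for Psmb10, 0.40 for Psme1 and 0.52 for Psme2. Psmb8 and Psmb9 had no day 7 UMIs left by that subtraction, so the size of their ratios was set by the pseudocount. With phagocyte RNA subtracted Psmb9 in other tubule was at 0.13 after reversal over day 7. With thinned cells, phagocytes on day 2 over sham had Psmb7 at -0.031 and Psmb8 at 0.11, and endothelial Psmb5 was at 4.0e-05 on day 7 over day 2.

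Counts of members past the fold moved by over 1.5 times mainly with a fold of 2. For proximal tubule 4 were then higher on day 2 over sham, 5 on day 7 over sham and 3 lower after reversal over day 7 (7.08, 19.1 and 3.35% of all genes), and for phagocytes 6 were higher on day 2 over sham (15.7%). With TMM factors and a fold of 1.5, day 7 over sham gave 5 higher and 3 lower in proximal tubule (20.7 and 25.4% of all genes), 11 higher in other tubule (20.3%), 8 in phagocytes (27.2%) and 4 in endothelium (20.4%). Of the other TMM counts, 1 member each was then lower in proximal tubule on day 2 over sham (15.1%) and on day 7 over day 2 (12.4%), and in phagocytes on day 2 over sham (19.7%).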
